A study of Mus musculus with 132 samples.

Results

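Structural small RNAs without a poly(A) tail were followed through hematopoietic differentiation of mouse embryonic stem cells (mESCs) and between clones that lack a CTCF site at either promoter of Runx1. The RNAs were chosen by name: Rn7sk, Rmrp, Rpph1, Rny1, Rny3 and Vaultrc5, which RNA polymerase III (Pol III) transcribes, and Terc, a Pol II transcript that served as a control. Of these 7 RNAs, 4 had an entry among the 25146 in the count table: Rmrp, Rpph1, Terc and Vaultrc5. Rn7sk, Rny1 and Rny3 were not analysed here.

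Poly(A)-minus RNA-seq was available for 23 libraries of E14-TG2a, a male mESC line of strain 129/Ola, and of clones of it. The wild-type (WT) clones were named B9.3, C6.1, C8.1, and were compared with P1-CTCF-KO clones E7.1, E7.2 and E9.1 and P2-CTCF-KO clones D2.1, D10.1 and another clone named E9.1, in which CRISPR/Cas9 had removed the CTCF motif beside the distal (P1) or the proximal (P2) promoter, with 2 distinct deletion alleles in each knockout clone. Cells were undifferentiated (day 0, 2 WT libraries), Flk1+ mesoderm (day 4, 9 libraries) or CD41+ hematopoietic progenitor cells (HPCs, day 7, 12 libraries). Mesoderm and HPCs were isolated by sorting. Both undifferentiated libraries are labelled as technical replicates of E14, with no clone named. Clones B9.3, D2.1 and D10.1 gave an additional HPC library each, named B9.3-2, D2.1-2 and D10.1-2 below. Of these libraries, the study's methods describe removal of ribosomal RNA for the undifferentiated ones alone, while the labels list it in a general protocol. Comparisons within and between mesoderm and HPCs therefore come first.

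Pol III makes short, abundant, untranslated RNAs, and its type 3 promoters lie wholly upstream of the transcribed sequence, with a TATA box and an upstream element that often contains an octamer bound by Oct-1. Rmrp is the RNA of RNase MRP, which processes precursor ribosomal RNA, and Rpph1 is the catalytic RNA of RNase P, which trims the 5′ ends of precursor tRNAs; both particles share most of their proteins. Terc is the template RNA of telomerase, and Vaultrc5 is an RNA of the vault particle.

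Libraries held between 18233679 and 24406998 counts in mesoderm, between 7805102 and 13513677 in HPCs, and 24283287 and 20532578 in undifferentiated cells. Ribosomal RNA (Rn45s) and entries listed at several loci or over 2.5 Mb took between 87.8% and 91% of the counts in mesoderm and HPCs and 68.1% and 76.3% in undifferentiated cells, which left 1897917 to 2288976, 878966 to 1584401, and 7748567 and 4858660 counts at single loci, respectively. Levels are given as CPM, the count relative to the library's total after TMM scaling, which sets the libraries of a fit on a common scale. WT mesoderm C6.1 and P2-CTCF-KO mesoderm D2.1 stood apart with TMM factors of 0.446 and 0.522 against 0.675 to 1.455 in the other 19 libraries, and the members' changes are also given without them. Summed markers were taken in counts for each 1000000 counts at single loci, not on the CPM scale of the members. Those of pluripotency and blood followed the labels. All 5 pluripotency markers together reached 806 and 838 in undifferentiated cells, at most 31 in mesoderm and at most 18.7 in HPCs. The 5 hematopoietic markers reached 703 to 1750 in HPCs against at most 153 in mesoderm. The 5 mesoderm markers lay between 186 and 437 in mesoderm and between 25 and 193 in HPCs, so that these stages overlapped. The 4 cardiac markers reached 47.3 in HPCs against at most 4.54 in mesoderm, and the 3 endoderm markers at most 4.44 and 13.1. On that scale the 4 endothelial markers lay between 2.72 and 552 in mesoderm libraries and between 63.4 and 462 in those of HPCs, and of 3 tested 1 fell in HPCs of WT, none passed the test in P1-CTCF-KO and 3 rose in P2-CTCF-KO; their part in the changes between stages below was not tested. Runx1 rose from mesoderm to HPCs in each genotype (log2 fold change 3.16, 3.96 and 3.83 in WT, P1-CTCF-KO and P2-CTCF-KO) and was not called between genotypes. In such bulk samples fewer cells of a type cannot be told apart from less RNA per cell.

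All coordinates are of mm9. Rmrp lies at chr4:43505656-43505931 on the minus strand (276 bp), with the start of Ccdc107 305 bp away. Rpph1 lies at chr14:51427121-51427446 on the minus strand (326 bp) and starts 144 bp from Parp2, which is transcribed in the opposite direction. Terc lies at chr3:96218359-96218756 on the minus strand (398 bp), and Vaultrc5 is 346 bp long. None of the 4 overlapped another single-locus entry. Of the other Pol III entries fixed for comparison, Rprl1, Rprl2 and Rprl3 are annotated as copies of the RNase P RNA. Over their aligned bases 189 of 208 (Rprl1), 194 of 208 (Rprl2) and 193 of 205 (Rprl3) matched Rpph1, or 90.9%, 93.3% and 94.1%, with shared runs of at most 27, 32 and 37 bases. Reads could thus be split between Rpph1 and its copies, and their counts are uncertain to that degree. Over all 23 libraries Rprl1 had 4 counts, Rprl2 20 and Rprl3 8608. The entries Bc1 (346458 bp, overlapping 2 other entries) and Rn4.5s (98006 bp) span far more than the RNAs they are named for and were not read as those RNAs.

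The sequences below show the mesoderm peaks at Rmrp, Rprl3 and Terc and a part of the peak at Rpph1, as the reference genome of mm9 gives them on the minus strand. The peak at Vaultrc5 is not shown. In the Rmrp peak (chr4:43505709-43505946, 15 bases before the RNA and its first 223) and in the Rprl3 peak (chr8:3803238-3803358, within the RNA), capitals mark the bases that also lay in a peak of HPCs. In the Terc peak (chr3:96218754-96218846, 90 bases before the RNA and its first 3), capitals mark a CCAAT box. The sequence between the starts of Parp2 and Rpph1 with the first 50 bases of Rpph1 (chr14:51427397-51427590) is shown because a single peak covered it in both cell types, and its capitals mark an octamer, written ATGCAAAT on this strand, and a TATA element, TTATA.
Rmrp peak: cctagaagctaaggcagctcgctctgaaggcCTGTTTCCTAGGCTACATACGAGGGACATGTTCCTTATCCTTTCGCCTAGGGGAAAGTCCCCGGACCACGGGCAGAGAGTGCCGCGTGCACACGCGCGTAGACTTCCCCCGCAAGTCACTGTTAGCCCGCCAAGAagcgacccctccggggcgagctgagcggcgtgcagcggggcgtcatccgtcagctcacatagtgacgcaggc
Rprl3 peak: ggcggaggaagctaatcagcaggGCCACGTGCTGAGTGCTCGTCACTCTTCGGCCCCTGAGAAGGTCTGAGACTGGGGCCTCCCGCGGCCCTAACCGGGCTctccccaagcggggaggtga
Terc peak: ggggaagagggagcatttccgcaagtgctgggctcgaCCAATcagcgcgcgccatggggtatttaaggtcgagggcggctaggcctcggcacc
Rpph1 and Parp2 starts: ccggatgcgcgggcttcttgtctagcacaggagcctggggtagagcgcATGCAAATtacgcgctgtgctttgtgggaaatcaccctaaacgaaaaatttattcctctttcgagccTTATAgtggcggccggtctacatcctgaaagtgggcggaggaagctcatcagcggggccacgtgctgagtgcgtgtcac

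Motifs were searched on both strands of these sequences (TTATA on the strand of the RNA) and of same-length windows at the centres of all mesoderm peaks. The octamer ATTTGCAT began 96 bases before Rpph1 on the opposite strand, and 1.53% of 76758 windows of that length held it. TTATA lay 29 bases before Rpph1; among the 24961 single-locus entries 1.69% had these letters between 40 and 15 bases before their start, and neither Rmrp, Terc, Vaultrc5 nor Rprl1 to Rprl3 did. CCAAT began 53 bases before Terc, against 13.8% of windows of that length. None of the sequences held CCCANNATG, the core of the Zfp143 site (1.39% to 3.64% of windows), GGTTCGA, the core of the B box (0.191% to 0.498%), or ANTNNAAAG, a core of the proximal element (4.25% to 12.7%), which says only that these letters are not in these windows.

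Accessibility at the starts was compared by peaks called on merged WT reads (76766 peaks in mesoderm and 29037 in HPCs), which carry no height or replicate. By the methods, the reads came from a reporter line of E14-TG2a, with more replicates and experiments for mesoderm than for HPCs. For a peak found in mesoderm alone, cell type and this imbalance cannot be told apart. In mesoderm a peak overlapped the RNA or lay within 500 bp of its start at 4 of 4 members, against 67.6% of the 24961 single-locus entries and 33.3% of the 33 entries of 200 to 400 bp. In HPCs this held for 3 of 4 members, against 46.5% of all entries and 30.3% of the short ones. Long entries meet this rule more easily. Within 500 bp of the start alone, the members were 4 of 4 and 3 of 4, against 51.8% and 34.7% of all entries. At Rmrp the peak ran from 15 bases before to 222 bases after the start in mesoderm and from 16 to 150 bases after it in HPCs. At Rpph1 both peaks began inside Parp2, past its start, at 214 bases before Rpph1 in mesoderm and 216 in HPCs, and ended 288 and 206 bases into the RNA. Terc had a peak in mesoderm, ending at its start, and none in HPCs. Vaultrc5 had a peak over its start in both, from 123 bases before to 258 after it in mesoderm and from 88 before to 267 after it in HPCs. None of the 4 members had a CTCF peak of 416B cells, a mouse myeloid progenitor line (44513 peaks), within 500 bp or over the RNA, against 43.2% of all single-locus entries and 3.03% of the 33 short ones. Within 500 bp of the start alone, 9.11% of all entries had such a peak. At 2000 bp Vaultrc5 had one, 1150 to 1420 bases downstream of its start.

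**Figure D1:**
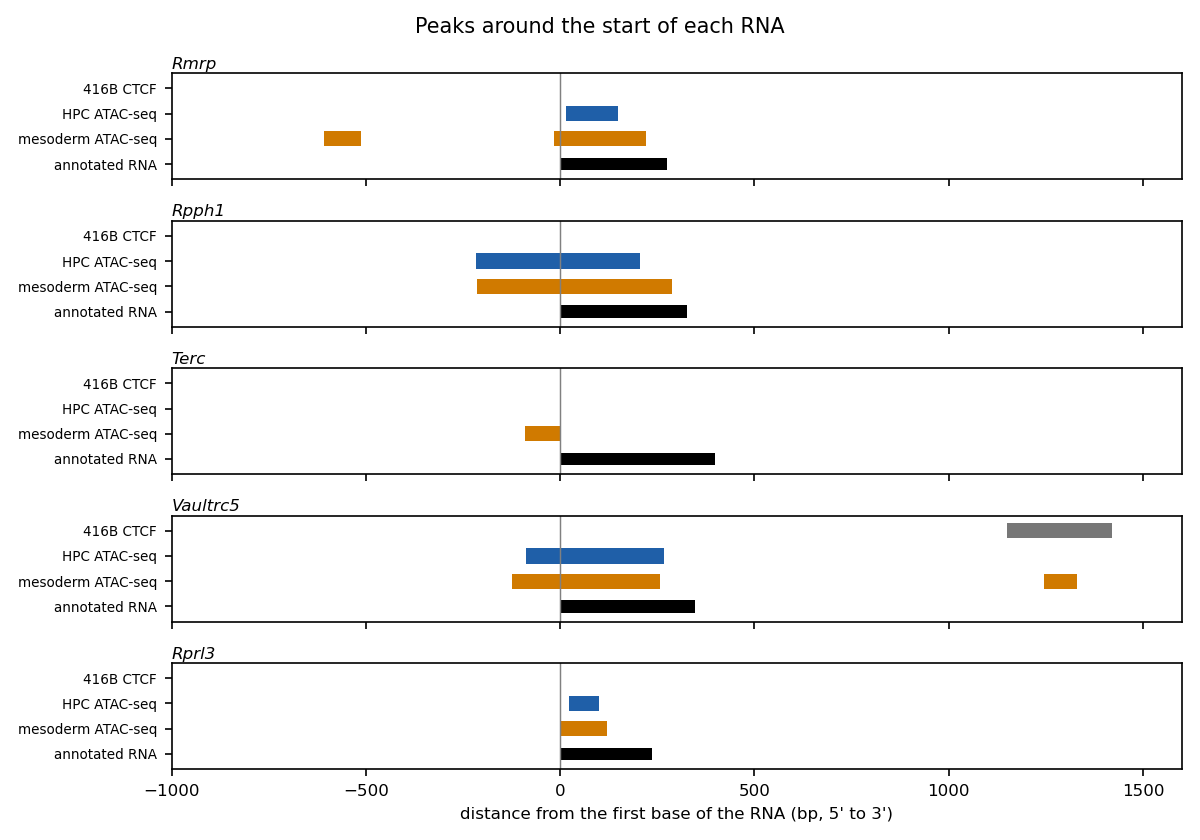
Peaks around the start of each RNA. Black bars are the annotated RNAs from their first base (0) to their end, orange and blue bars the ATAC-seq peaks of WT mesoderm and HPCs, and grey bars the CTCF peaks of 416B cells, in bp from the first base. Rmrp, Rpph1, Vaultrc5 and Rprl3 have a peak in both cell types and Terc in mesoderm alone, for which more replicates were merged.

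The RNAs were present at very different levels. Per kilobase of the RNA, Rpph1 ranged from 482 to 1136 CPM (median 709 CPM) and Rmrp from 225 to 666 CPM (median 471 CPM) over the 9 mesoderm libraries, and Terc from 1.40 to 5.33 CPM (median 3.46 CPM). In the 12 HPC libraries the levels per kilobase were 148 to 592 CPM (median 289 CPM) for Rpph1, 93.5 to 304 CPM (median 182 CPM) for Rmrp and 0.531 to 4.33 CPM (median 1.72 CPM) for Terc. Rpph1 thus stood above Rmrp and Terc far below both at either stage, and within each of the 23 libraries the counts per base of Rpph1 exceeded those of Rmrp, by 1.13 to 6.43 times. Vaultrc5 had 8 counts in all: 2 and 0 in undifferentiated cells, 1 in WT mesoderm C8.1, P1-CTCF-KO mesoderm E7.2, P2-CTCF-KO mesoderm D2.1, WT HPCs B9.3 and C8.1 and P1-CTCF-KO HPCs E7.2 each, and 0 in the other 15 libraries. With no library above 3 counts, the smallest number taken as detectable, its level could not be compared between groups, although peaks covered its start. Of the 4 members, 3 passed the filter on low counts and were tested.

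To determine whether deletion of either CTCF site was accompanied by a change in these RNAs, genotypes were compared within each stage. In mesoderm Rmrp was at 104, 125 and 174 CPM in WT (B9.3, C6.1 and C8.1), at 105, 62.1 and 184 CPM in P1-CTCF-KO (E7.1, E7.2 and E9.1) and at 130, 139 and 145 CPM in P2-CTCF-KO (D10.1, D2.1 and E9.1). The genotypes overlapped, and the lowest and the highest library were both P1-CTCF-KO. Rpph1 was at 254, 172 and 231 CPM in WT, 219, 157 and 370 CPM in P1-CTCF-KO and 254, 201 and 335 CPM in P2-CTCF-KO. Again P1-CTCF-KO held both ends of the range. Terc was at 0.838, 1.76 and 1.53 CPM in WT, 1.47, 0.556 and 1.23 CPM in P1-CTCF-KO and 1.38, 2.12 and 1.26 CPM in P2-CTCF-KO. These levels rested on 16 to 30 counts per library, and the genotypes overlapped.

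No member passed the test between genotypes of mesoderm (edgeR quasi-likelihood test, Benjamini-Hochberg adjustment over 8778 genes). For P1-CTCF-KO against WT 0 of 3 members were called, against 0% of all genes, and the log2 fold changes were -0.18 ± 0.33 (SE) for Rmrp, 0.20 ± 0.31 for Rpph1 and -0.32 ± 0.42 for Terc. For P2-CTCF-KO against WT 0 of 3 were called, against 0.0342% of all genes, with log2 fold changes of 0.06 ± 0.33, 0.29 ± 0.31 and 0.25 ± 0.41, respectively. For P2-CTCF-KO against P1-CTCF-KO 0 of 3 were called, against 0% of all genes, with log2 fold changes of 0.24 ± 0.33, 0.09 ± 0.31 and 0.57 ± 0.41. No member had an unadjusted p under 0.05 in these comparisons, whereas 168, 1408 and 987 of all genes did. DESeq2 called 0, 180 and 99 genes, and no member. Without WT C6.1 and P2-CTCF-KO D2.1, no member was called either, and the log2 fold changes of Rmrp, Rpph1 and Terc were -0.23, 0.05 and -0.14 for P1-CTCF-KO against WT, 0.001, 0.30 and 0.17 for P2-CTCF-KO against WT, and 0.23, 0.24 and 0.31 between both knockouts. The errors leave room for changes of the size of 1 SE or more in either direction, so these values do not show that the levels were equal; with the way the libraries were scaled the sign changed for Rmrp in all 3 comparisons, for Rpph1 in both that involve P2-CTCF-KO and for Terc in P2-CTCF-KO against WT.

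In HPCs Rmrp was at 34.2, 64.7, 27.3 and 47.5 CPM in WT (B9.3, B9.3-2, C6.1 and C8.1), at 75.0, 83.8 and 40.6 CPM in P1-CTCF-KO (E7.1, E7.2 and E9.1) and at 50.3, 51.0, 25.8, 50.2 and 60.8 CPM in P2-CTCF-KO (D10.1, D10.1-2, D2.1, D2.1-2 and E9.1). Both libraries above 70 CPM were P1-CTCF-KO, but the third overlapped WT. Rpph1 was at 64.9, 167, 68.5 and 101 CPM in WT, 115, 139 and 74.8 CPM in P1-CTCF-KO and 87.5, 77.5, 48.3, 147 and 193 CPM in P2-CTCF-KO. The highest 3 libraries were P2-CTCF-KO E9.1, WT B9.3-2 and P2-CTCF-KO D2.1-2, and the other libraries of clones B9.3 and D2.1 lay far lower, at 64.9 and 48.3 CPM. In clones B9.3 and D2.1 the repeat libraries thus lay far apart, whereas those of D10.1 (87.5 and 77.5 CPM) did not.

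For P1-CTCF-KO against WT in HPCs 0 of 3 members were called, against 0% of 7422 genes; the log2 fold changes were 0.63 ± 0.34 (unadjusted p = 0.089) for Rmrp and 0.14 ± 0.44 for Rpph1 by edgeR's quasi-likelihood test. For P2-CTCF-KO against WT 0 of 3 were called, against 0% of all genes, with log2 fold changes of 0.13 ± 0.30 for Rmrp and 0.14 ± 0.39 for Rpph1. For P2-CTCF-KO against P1-CTCF-KO 0 of 3 were called, against 0% of all genes, with log2 fold changes of -0.50 ± 0.33 for Rmrp and -0.01 ± 0.42 for Rpph1. With the scaling the sign changed for Rpph1 in both comparisons with P1-CTCF-KO and for Rmrp in P2-CTCF-KO against WT. DESeq2 also called 0 genes in each, and 260, 145 and 650 of all genes had an unadjusted p under 0.05 by edgeR. Of the members only Terc did so, in P1-CTCF-KO against WT.

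Terc was at 0.211, 0.656, 0.738 and 0.346 CPM in WT HPCs, which rested on 3, 6, 9 and 5 counts. It was at 1.72, 1.58 and 0.942 CPM in P1-CTCF-KO HPCs, from 10, 17 and 9 counts, and at 0.558, 1.38, 0.656, 0.713 and 0.639 CPM in P2-CTCF-KO HPCs, from 7, 17, 11, 8 and 7 counts. Every P1-CTCF-KO library was above every WT library, which was so for 2.37% of the 9170 genes tested in both stages together. The log2 fold change was 1.57 ± 0.45 for P1-CTCF-KO against WT (edgeR, unadjusted p = 0.0044, adjusted p = 0.91), 0.73 ± 0.41 for P2-CTCF-KO against WT (adjusted p = 1) and -0.84 ± 0.41 between both knockouts (adjusted p = 0.53). An exact 2-sided permutation test over the 3 P1-CTCF-KO and 4 WT libraries gave p = 0.057, where 0.029 is the smallest such a design allows. The test counts B9.3 and B9.3-2, which are of the same clone, as separate units. It is given because these groups did not overlap, which by itself brings p near that limit. The difference did not pass the correction for all genes, in any of 20 alternatives (adjusted p between 0.4 and 1).

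**Figure D2:**
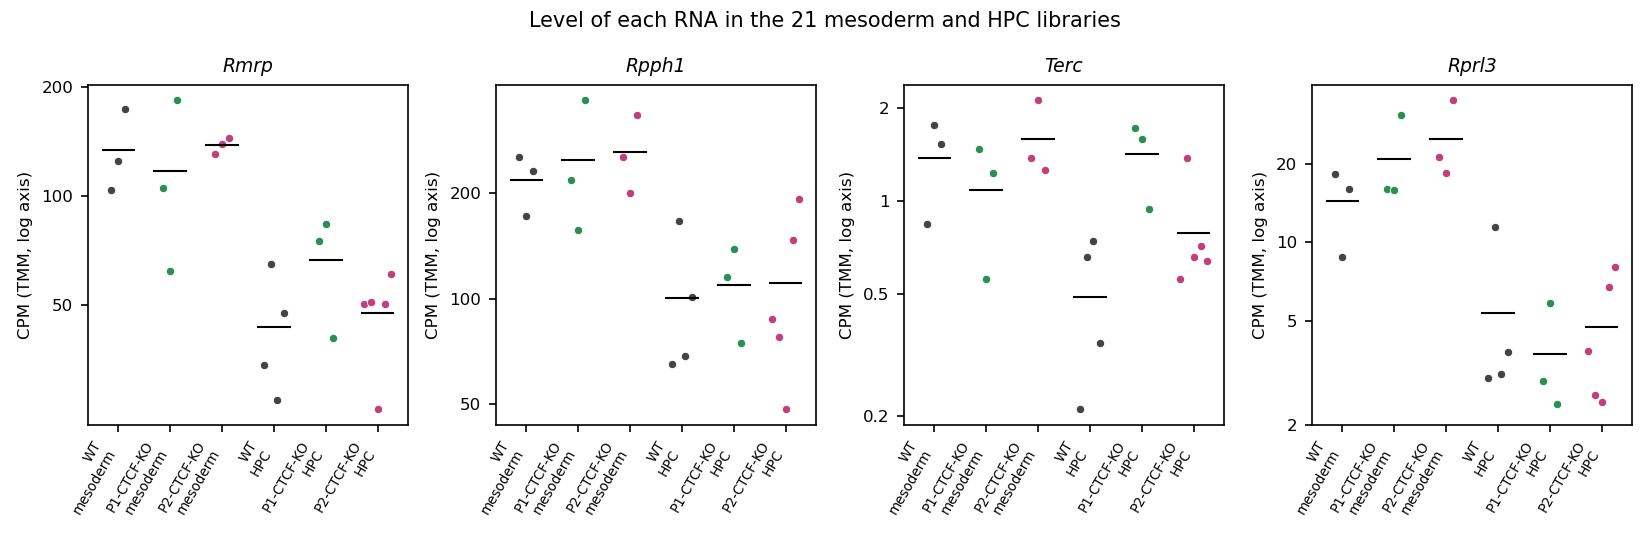
Level of Rmrp, Rpph1, Terc and the Rpph1 copy Rprl3 in CPM (TMM, log axis) in each of the 21 mesoderm and HPC libraries (points) by genotype and stage, with the group mean as a bar. Every HPC library lies below every mesoderm library of its genotype for Rpph1, and for Rmrp in WT and P2-CTCF-KO but not in P1-CTCF-KO, and Terc in P1-CTCF-KO HPCs (0.942 to 1.72 CPM) lies above WT HPCs (0.211 to 0.738 CPM).

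HPCs were then compared with mesoderm of the same genotype. Rpph1 fell in HPCs in each genotype and Rmrp in WT and P2-CTCF-KO, with calls that in part depended on the scaling of the libraries. The mean level of Rmrp went from 134 ± 35.9 CPM (SD, n = 3) to 43.4 ± 16.5 CPM (n = 4) in WT, from 117 ± 61.7 CPM (n = 3) to 66.5 ± 22.8 CPM (n = 3) in P1-CTCF-KO and from 138 ± 7.26 CPM (n = 3) to 47.6 ± 13.0 CPM (n = 5) in P2-CTCF-KO. In WT and in P2-CTCF-KO every HPC library was below every mesoderm library; in P1-CTCF-KO they overlapped, since mesoderm E7.2 (62.1 CPM) was lower than HPCs E7.1 and E7.2. The log2 fold change of Rmrp was -1.63 ± 0.36 in WT (edgeR, adjusted p = 0.0019), -0.82 ± 0.38 in P1-CTCF-KO (adjusted p = 0.099) and -1.53 ± 0.33 in P2-CTCF-KO (adjusted p = 0.0015). Rmrp thus passed the test in WT and P2-CTCF-KO, and did so in 31 of 32 and 30 of 31 alternatives.

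Rpph1 went from 219 ± 42.1 CPM to 100.4 ± 47.4 CPM in WT, from 249 ± 110 CPM to 110 ± 32.3 CPM in P1-CTCF-KO and from 263 ± 67.5 CPM to 111 ± 58.5 CPM in P2-CTCF-KO (SD, same n). Every HPC library was below every mesoderm library of its genotype, by a narrow margin in WT (172 CPM in mesoderm C6.1 against 167 CPM in HPCs B9.3-2) and in P2-CTCF-KO (201 CPM in mesoderm D2.1 against 193 CPM in HPCs E9.1). The log2 fold change was -1.13 ± 0.41 in WT (edgeR, adjusted p = 0.042), -1.18 ± 0.45 in P1-CTCF-KO (adjusted p = 0.044) and -1.25 ± 0.39 in P2-CTCF-KO (adjusted p = 0.017). All 3 passed the test, but the call in WT was lost in 15 of 32 alternatives, that in P1-CTCF-KO in 15 of 31, including the fit with the clone as a block (-1.13 ± 0.47, adjusted p = 0.077), and that in P2-CTCF-KO in 4 of 31.

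The mean of Terc went from 1.38 ± 0.480 CPM to 0.488 ± 0.250 CPM in WT, from 1.08 ± 0.472 CPM to 1.42 ± 0.416 CPM in P1-CTCF-KO and from 1.59 ± 0.467 CPM to 0.788 ± 0.333 CPM in P2-CTCF-KO (SD, same n). In WT every HPC library was below every mesoderm library, and in both knockouts the stages overlapped. The log2 fold change was -1.50 ± 0.45 in WT (edgeR, adjusted p = 0.015), 0.39 ± 0.45 in P1-CTCF-KO (adjusted p = 0.52) and -0.99 ± 0.40 in P2-CTCF-KO (adjusted p = 0.055). The decrease passed the test in WT alone, and was called in 26 of 32 alternatives there; the WT value of HPCs rests on 23 counts in all 4 libraries together.

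Over the members 3 of 3 were called, all lower, in WT, against 33.9% of 9170 genes called and 16.9% called lower. In P1-CTCF-KO 1 of 3 was called and lower, against 39.4% called and 19.0% lower, and in P2-CTCF-KO 2 of 3, against 37.3% called and 15.6% lower. Every HPC library lay below every mesoderm library for 3 of 3 members in WT, 1 of 3 in P1-CTCF-KO and 2 of 3 in P2-CTCF-KO, where this was so for 19.2%, 29.6% and 14.9% of all genes. In exact 2-sided permutation tests over these libraries, p was 0.029 (WT) and 0.018 (P2-CTCF-KO) for Rmrp. For Rpph1 it was 0.057, 0.1 and 0.036 in WT, P1-CTCF-KO and P2-CTCF-KO, and for Terc 0.057 in WT. The smallest p the designs allow is 0.029 in WT, 0.1 in P1-CTCF-KO and 0.018 in P2-CTCF-KO. These cases were picked because the stages did not overlap, which by itself brings p near that limit. Where they overlapped, the same test gave 0.3 for Rmrp and 0.5 for Terc in P1-CTCF-KO, and 0.054 for Terc in P2-CTCF-KO. Repeat libraries of a clone entered as separate units. Without WT mesoderm C6.1 and P2-CTCF-KO mesoderm D2.1, whose TMM factors were low, the log2 fold changes in WT were -1.76 for Rmrp, -1.35 for Rpph1 and -1.39 for Terc, and those in P2-CTCF-KO -1.62, -1.50 and -0.82, with the calls as before. The call of Rpph1 and Terc in WT was lost without mesoderm C6.1 alone or C8.1 alone, which left Rmrp as the only member called, and that of Rpph1 in P2-CTCF-KO was lost without mesoderm E9.1.

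The difference of the stage change between genotypes was tested itself. For P1-CTCF-KO against WT 0 of 3 members were called, against 0% of 9170 genes, with differences in log2 fold change of 0.81 ± 0.52 for Rmrp, -0.06 ± 0.61 for Rpph1 and 1.89 ± 0.64 for Terc (edgeR, unadjusted p = 0.0082, adjusted p = 1). For P2-CTCF-KO against WT 0 of 3 were called, against 0.0218% of all genes, with differences of 0.09 ± 0.49, -0.13 ± 0.58 and 0.51 ± 0.60, respectively. The stage changes of Rmrp and Terc in WT and in P1-CTCF-KO were therefore not shown to differ. DESeq2 called 0 and 37 genes, and 306 and 643 had an unadjusted p under 0.05 by edgeR.

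**Figure D3:**
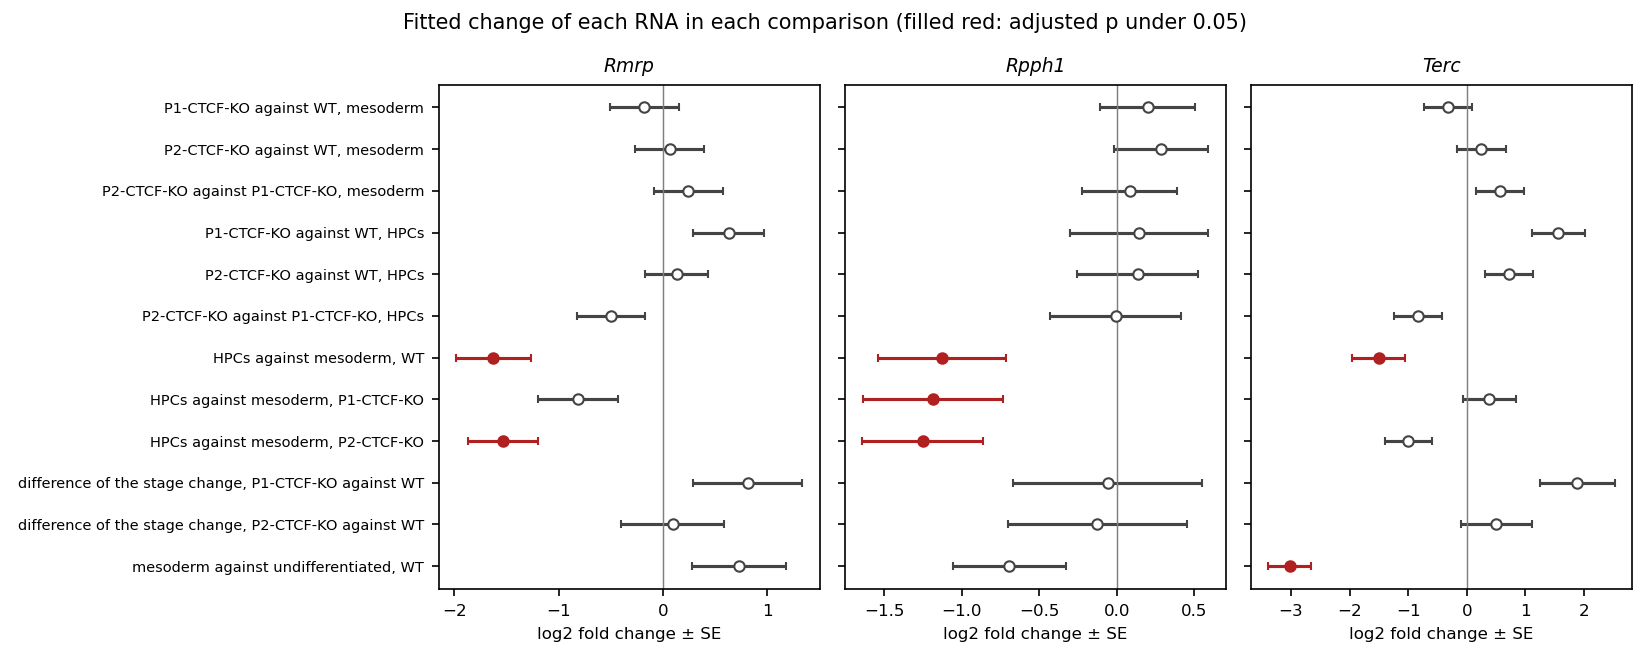
Fitted log2 fold change of Rmrp, Rpph1 and Terc with its SE in each of the 12 comparisons, filled red where the adjusted p was under 0.05. The red points lie in the comparisons between stages, at -1.63 and -1.53 for Rmrp, at -1.13, -1.18 and -1.25 for Rpph1, and at -1.50 and -3.03 for Terc.

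Since most counts of a library came from ribosomal and repeated sequence, the changes were compared between 6 scalings: TMM, RLE and DESeq2 size factors, the total of single-locus entries, and the totals of snoRNA and scaRNA entries, all of them or those at single loci. The median log2 fold change of all genes between stages moved from -0.05 to 0.86 in WT, from -0.40 to 0.29 in P1-CTCF-KO and from 0.01 to 1.17 in P2-CTCF-KO with the scaling. The share of called genes that were higher was 50.2%, 51.7% and 58.3% in WT, P1-CTCF-KO and P2-CTCF-KO with TMM, 73.6%, 36.9% and 83.5% with the total of single-locus entries, 87.3%, 72.4% and 93.9% with all snoRNA and scaRNA entries, and 84.4%, 70.8% and 94% with those at single loci. A scaling moves all genes of a library alike, so that values relative to that median are nearly fixed by construction and say nothing of stability; they place the members among all genes. Rmrp lay at -1.68 to -1.64 in WT, -0.74 to -0.61 in P1-CTCF-KO and -1.75 to -1.63 in P2-CTCF-KO, and Rpph1 at -1.26 to -1.14, -1.11 to -0.998 and -1.47 to -1.33 (log2). Terc lay at -1.55 to -1.45 in WT, 0.46 to 0.54 in P1-CTCF-KO and -1.21 to -1.04 in P2-CTCF-KO relative to the median. Without subtracting the median, the values of Rmrp ranged from -1.69 to -0.80 in WT, from -1.06 to -0.32 in P1-CTCF-KO and from -1.62 to -0.46 in P2-CTCF-KO, and those of Rpph1 from -1.20 to -0.38, from -1.44 to -0.71 and from -1.34 to -0.20. Terc ranged from -1.58 to -0.59 in WT, from 0.10 to 0.83 in P1-CTCF-KO and from -1.09 to 0.13 in P2-CTCF-KO. With the total of all snoRNA and scaRNA entries no member was called in any genotype.

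**Figure D4:**
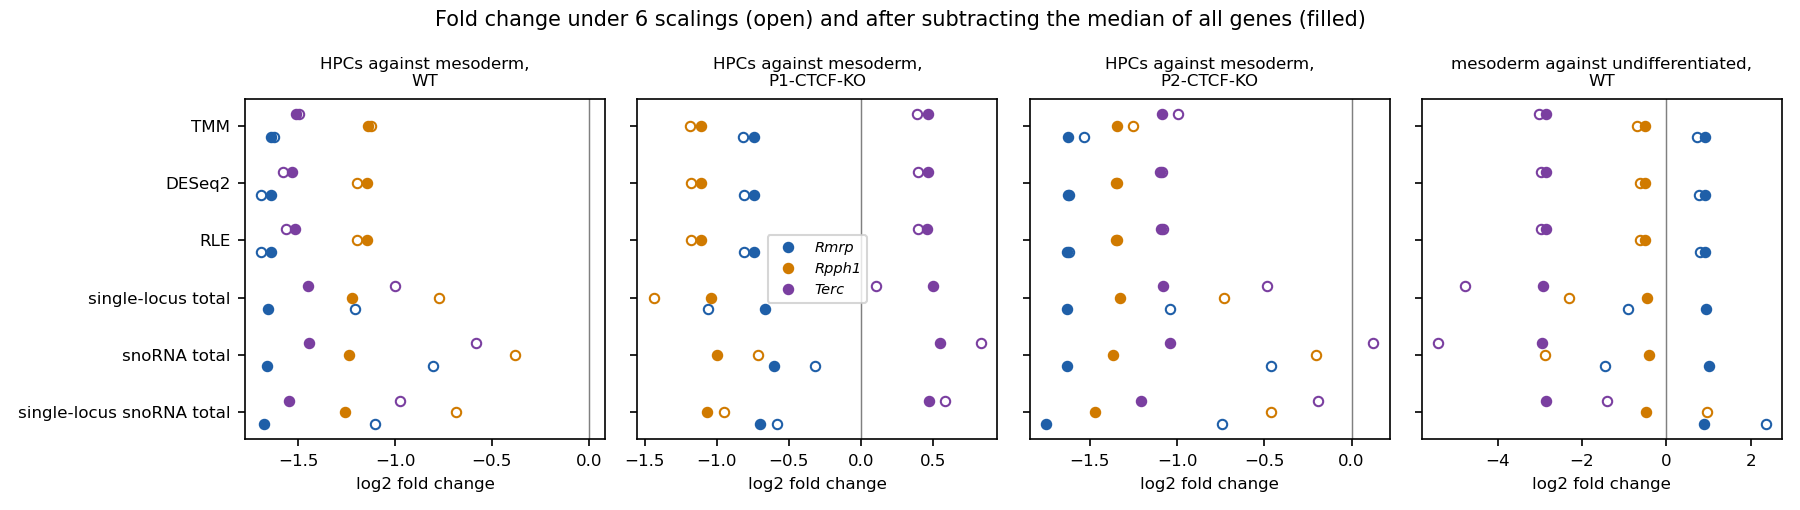
Log2 fold change of Rmrp, Rpph1 and Terc under 6 scalings of the libraries (open circles) and after subtraction of the median of all genes (filled circles), between HPCs and mesoderm in each genotype and between WT mesoderm and undifferentiated cells. Open circles shift with the scaling, for Rmrp in WT between -1.69 and -0.80; filled circles stay nearly in place by construction.

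Ratios between members of the same library, which no scaling enters, were formed after these values had been seen. Rpph1 had 1.33 to 2.53 times the counts of Rmrp in mesoderm and 1.52 to 3.17 times in HPCs. The mean log2 ratio of Rpph1 to Rmrp differed by 0.09 between HPCs and mesoderm (exact permutation of the stage within genotype, 39200 arrangements, 2-sided p = 0.59, adjusted over 6 ratios 0.59), less than the SD of 0.35 within groups. By genotype this difference was 0.46 in WT, -0.39 in P1-CTCF-KO and 0.20 in P2-CTCF-KO, so that the mean joins changes of opposite sign. Terc against Rmrp was higher in HPCs by 0.60 (adjusted exact p = 0.075) and Terc against Rpph1 by 0.51 (adjusted exact p = 0.23), and neither passed the test; without WT mesoderm C6.1 and P2-CTCF-KO mesoderm D2.1, Terc against Rmrp was higher by 0.76 and passed it (adjusted exact p = 0.036). By genotype the difference of Terc to Rpph1 was -0.38 in WT, 1.59 in P1-CTCF-KO and 0.33 in P2-CTCF-KO, on the log2 scale.

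The RNase P copy Rprl3 fell further than Rpph1 itself. It was at 18.3, 8.81 and 16.1 CPM in WT mesoderm, 16.1, 15.8 and 30.7 CPM in P1-CTCF-KO mesoderm and 21.4, 18.4 and 35.3 CPM in P2-CTCF-KO mesoderm. In HPCs it was at 3.03, 11.5, 3.12 and 3.80 CPM in WT, 2.93, 5.86 and 2.41 CPM in P1-CTCF-KO and 3.82, 2.59, 2.44, 6.77 and 8.04 CPM in P2-CTCF-KO. The stages overlapped in WT, through HPCs B9.3-2 and mesoderm C6.1, and did not in the knockouts. The log2 fold change between HPCs and mesoderm was -1.45 ± 0.49 in WT (edgeR, adjusted p = 0.029), -2.46 ± 0.57 in P1-CTCF-KO (adjusted p = 0.0023) and -2.41 ± 0.46 in P2-CTCF-KO (adjusted p = 0.00054). The call in WT held under 3 of the 6 scalings (-1.53 to -0.77) and those in the knockouts under 6 of 6. Its counts were 5.11% to 10.5% of those of Rpph1 in mesoderm and 2.55% to 6.87% in HPCs, and the ratio fell by 0.97 on the log2 scale (exact permutation p = 5.1e-05, adjusted over 6 ratios 0.00031). The decrease of this ratio was 0.39 in WT, 1.38 in P1-CTCF-KO and 1.13 in P2-CTCF-KO (log2). Rprl3 against Rmrp fell by 0.88 on the log2 scale (adjusted exact p = 0.022), and Terc against Rprl3 was higher by 1.48 (adjusted exact p = 0.022). By genotype these differences were 0.06 and 0.01 in WT, -1.78 and 2.98 in P1-CTCF-KO and -0.93 and 1.46 in P2-CTCF-KO (log2). Taking the mean of the libraries of a clone left the ratio of Rprl3 to Rpph1 lower by a factor of 0.502 (exact permutation p = 0.0005), against 0.511 with each library. The part of reads shared between the copies in this ratio was not tested.

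**Figure D5:**
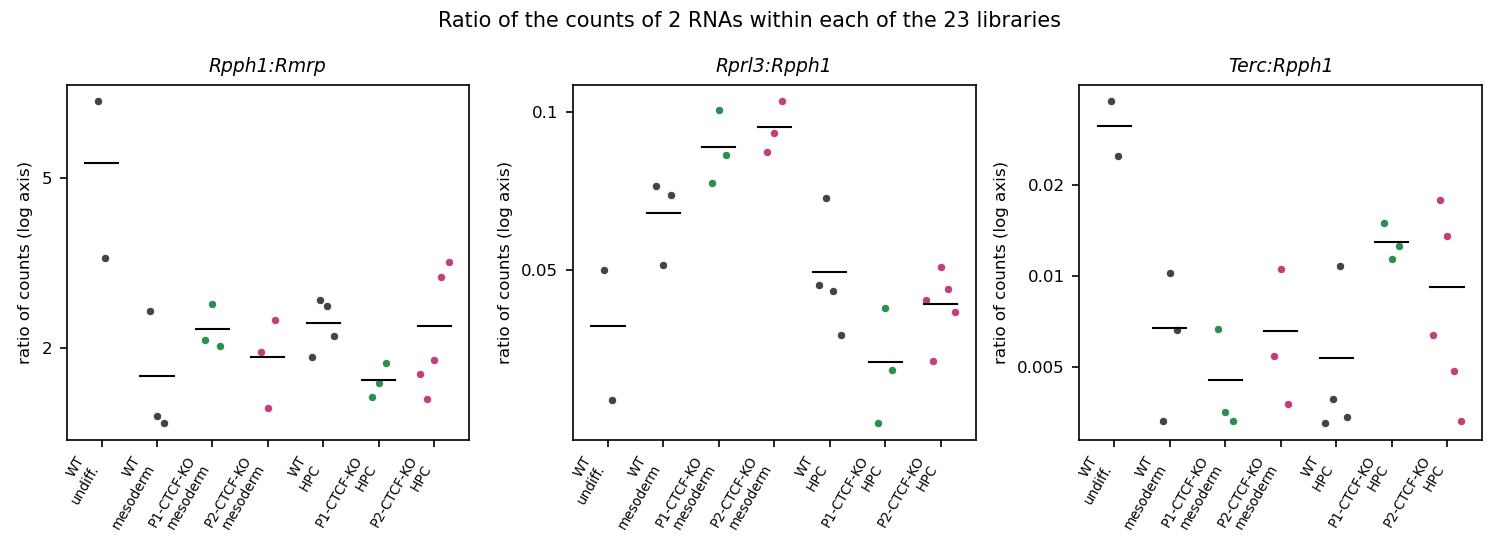
Ratio of the counts of Rpph1 to Rmrp, Rprl3 to Rpph1 and Terc to Rpph1 (log axes) in each of the 23 libraries (points) with the group mean as a bar. Rpph1 to Rmrp overlaps between mesoderm (1.33 to 2.53) and HPCs (1.52 to 3.17), and Rprl3 to Rpph1 lies lower in HPCs (0.0255 to 0.0687) than in most of mesoderm (0.0511 to 0.105).

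The 21 mesoderm and HPC libraries differ in stage, depth and the ribosomal share of their counts, and any correlation across them includes these differences. Across them the genes most like each member among 9170 were listed by Pearson's r of log2 CPM as a description. For Rmrp these were Rpph1 (0.91), Snhg3, a snoRNA host gene (0.88), and Rnf44 (0.87). For Rpph1 these were its copy Rprl3 (0.95), Rmrp (0.91) and Kmt2b (0.87). For Terc these were the ribosomal protein gene Rpl13a (0.82), the ribosomal RNA entry Rn45s (0.80) and Gm15318, which is listed at several loci (0.80); its r was 0.68 with Rmrp and 0.48 with Rpph1. Parp2, which shares the accessible region with Rpph1 and functions in DNA repair, did not pass the test between HPCs and mesoderm, with log2 fold changes of 0.85 ± 0.50 in WT, 0.06 ± 0.54 in P1-CTCF-KO and 0.08 ± 0.47 in P2-CTCF-KO.

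The proteins that make, bind or work with these RNAs were counted by lists. Their counts stand against the 33.9%, 39.4% and 37.3% of all genes called between stages in WT, P1-CTCF-KO and P2-CTCF-KO. Called lower were 16.9%, 19.0% and 15.6% of all genes, respectively. The calls of many genes depended on the scaling. No gene of any list was called between genotypes at either stage or in the difference of the stage change. Of the Pol III subunits 10 of 11 were tested between HPCs and mesoderm: 1 rose and 1 fell in WT and in P1-CTCF-KO, and 1 rose in P2-CTCF-KO, with medians of -0.05, -0.63 and -0.01 (log2) against 0.01, -0.07 and 0.09 over all genes. Polr3gl, which replaces its paralog Polr3g in many differentiated cells, rose in each genotype (1.33 ± 0.47, 1.32 ± 0.47 and 2.88 ± 0.57), with calls under 6, 3 and 6 of the 6 scalings. Polr3g itself was at 0.15, -0.95 and 0.21 and was not called with TMM. Polr3e was called lower in WT (-0.75 ± 0.28; up to 0.12 with another scaling) and P1-CTCF-KO (-0.93 ± 0.32), under 3 and 4 of the 6 scalings.

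Of 19 Pol III transcription factors 16 were tested: 1 rose and 2 fell in WT, 2 fell in P1-CTCF-KO and 2 rose in P2-CTCF-KO, with medians of 0.15, -0.22 and 0.04 (log2). The TFIIIC subunits Gtf3c1 and Gtf3c4 fell in WT (-0.48 and -0.96; Gtf3c1 up to 0.35 with another scaling) and in P1-CTCF-KO (-0.50 and -1.35), and Zfp143 rose in WT (0.57 ± 0.21). Of the 6 scalings, Gtf3c1 was called under 3 in either genotype, Gtf3c4 under 3 in WT and 5 in P1-CTCF-KO, and Zfp143 under 4. The subunits Snapc1 and Snapc3 of the complex that binds the proximal element of type 3 promoters rose in P2-CTCF-KO (1.45 ± 0.38 and 0.79 ± 0.28; called under 6 and 4 of the 6 scalings). The Pol III repressor Maf1 was not called in any of the 3 with TMM. Of the 4 RNase P and MRP proteins that could be tested, of 11, none was called in WT or P2-CTCF-KO, and Pop4 and Rpp30 fell in P1-CTCF-KO (-1.94 ± 0.55 and -0.91 ± 0.36), with calls under 4 and 2 of the 6 scalings. The medians of that list were 0.07, -0.89 and -0.04 (log2).

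Of the 7 genes of the 7SK particle and its target P-TEFb, 2 rose and 1 fell in WT, 3 rose in P1-CTCF-KO and 2 rose in P2-CTCF-KO, with medians of 0.06, 0.03 and 0.25 (log2). Hexim1 and Hexim2, which inhibit P-TEFb when bound to 7SK RNA, rose in each genotype: Hexim1 by 2.11 ± 0.53, 2.07 ± 0.53 and 1.56 ± 0.50 and Hexim2 by 2.53 ± 0.66, 3.80 ± 0.75 and 1.95 ± 0.65 on the log2 scale. Both were called higher under each of the 6 scalings in each genotype, except Hexim2 in P2-CTCF-KO, which was called under 5. Cdk9, the kinase of P-TEFb, fell in WT (-1.33 ± 0.40), Ccnt2 rose in P1-CTCF-KO (0.55 ± 0.20), either under 3 of the 6 scalings, and Larp7, which holds the 3′ end of 7SK, was not called. Of the vault proteins 3 of 3 were tested and Parp4 rose in each genotype (1.80 ± 0.41, 2.57 ± 0.44 and 2.32 ± 0.44). The major vault protein Mvp rose in P1-CTCF-KO (1.49 ± 0.45, called under 5 of the 6 scalings). It was at 0.89 and 0.84 in WT and P2-CTCF-KO, not called with TMM but called higher under 3 of the 6 scalings in either. The medians of that list were 0.89, 1.49 and 0.84 (log2). Trove2, which encodes the Ro protein that binds Y RNAs, was not analysed here. Ssb, the La protein that binds the 3′ ends of new Pol III transcripts, was tested and not called with TMM (-0.18, -0.84 and -0.34).

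Of the 7 telomerase proteins 6 were tested: 1 fell in WT and 2 fell in each knockout, with medians of -0.47, -1.36 and -0.53 (log2). Tert, the reverse transcriptase that works with Terc, fell in WT (-2.79 ± 0.76, adjusted p = 0.0085) and P2-CTCF-KO (-2.36 ± 0.63, adjusted p = 0.0064), and was at -2.11 in P1-CTCF-KO (adjusted p = 0.06); its value was negative under each scaling, but it was called under 4 of 6 in WT, 0 in P1-CTCF-KO and 3 in P2-CTCF-KO. Nhp2 fell in P1-CTCF-KO and P2-CTCF-KO (-1.71 ± 0.49 and -1.40 ± 0.37, called under 4 and 3 of the 6 scalings), and Gar1 in P1-CTCF-KO (-2.56 ± 0.82, called under 6). Dyskerin (Dkc1) was at -0.41, -1.001 and -0.48 and was not called with TMM. In P1-CTCF-KO it was called lower under 3 of the 6 scalings. Among the snoRNA and scaRNA entries, which like the members lack a poly(A) tail, 7 of 116 could be tested: 2 fell in WT, 1 rose in P1-CTCF-KO and 3 fell in P2-CTCF-KO, with medians of -1.26, -0.50 and -1.02 (log2). Mesoderm and HPC libraries held only 121 to 482 counts of such entries at single loci, against 13468 and 7539 in undifferentiated cells.

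Comparisons with undifferentiated cells are also comparisons between library preparations, since by the methods those cells were depleted of ribosomal RNA. They also set cells labelled E14 against the WT clones. Stage, preparation and clone cannot be told apart. The labels call the 2 undifferentiated libraries technical replicates, whereas the paper counts 2 independent experiments for this stage. In a fit of the 9 WT libraries Rmrp was at 66.3 and 191 CPM in the undifferentiated libraries, against 165, 197 and 275 CPM in mesoderm. Rpph1 was at 503 and 621 CPM, against 403, 272 and 366 CPM, and Terc at 19.1 and 15.4 CPM, against 1.33, 2.78 and 2.42 CPM. The technical replicates differed in opposite directions, Rmrp and Rpph1 being higher in the second and Terc in the first, with a ratio of Rpph1 to Rmrp of 7.59 and 3.25.

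Of the members 1 of 3 was called between WT mesoderm and undifferentiated cells, lower in mesoderm, against 27.2% of 12899 genes called and 14.9% called lower. Terc fell by 3.03 ± 0.36 on the log2 scale (edgeR, adjusted p = 0.00024), was called in each of 16 alternatives, with changes of -5.40 to -1.40, and lay at -2.94 to -2.84 relative to the median of all genes. The undifferentiated libraries entered the fit as separate samples. If they are technical replicates, as labelled, the SE and p hold no spread between undifferentiated samples. Rmrp was at 0.72 ± 0.45 (adjusted p = 0.25) and Rpph1 at -0.69 ± 0.36 (adjusted p = 0.18); their signs changed with the scaling, from -1.46 to 2.35 for Rmrp and from -2.89 to 0.96 for Rpph1, while the median of all genes moved from -2.46 to 1.45. Relative to that median, Rmrp lay at 0.90 to 1.01 and Rpph1 at -0.51 to -0.42 (log2). Within the library Terc had 3.80% and 2.49% of the counts of Rpph1 in undifferentiated cells, 0.330% to 1.06% in mesoderm and 0.326% to 1.78% in HPCs. All libraries of both later stages thus lay below both undifferentiated libraries in this ratio. Of the lists, no Pol III subunit of 11 and no vault protein of 3 was called; 2 of 19 Pol III factors were, Gtf3a and Pou2f1, which encodes Oct-1 (-1.12 ± 0.37 and -0.83 ± 0.24), with 1 of 10 RNase P and MRP proteins, Pop1 (-1.56 ± 0.33), 1 of 7 genes of the 7SK particle, Larp7 (1.07 ± 0.37), and 1 of 7 telomerase proteins, Nhp2 (-1.44 ± 0.32), each with a sign that changed under at least 1 of the 6 scalings. Tert was at -1.22 (edgeR, adjusted p = 0.13), also with a sign that changed. Of the snoRNA and scaRNA entries 84 of 116 were tested, 2 were called higher and 26 lower in mesoderm, and their median was -1.83 against -0.18 over all genes (log2).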

How the data were processed

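Poly(A)-minus RNA of 23 libraries was sequenced with a directional kit, and the authors deposited 1 table of counts: by the methods, reads were aligned to mm9 with STAR, duplicates were removed and read pairs over exons and introns were counted per gene with featureCounts (versions are given in the study's methods). The authors also deposited peak positions called with MACS2 on merged reads, with ATAC-seq of an E14-TG2a line that, by the methods, carries a Venus reporter and a Runx1 enhancer transgene, and CTCF ChIP-seq of 416B cells.

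Members and gene lists were chosen with earlier results of these data known. Counts were tested with edgeR 4.0.16 in R 4.3.3 (quasi-likelihood test, TMM, minimum count of 10 in the filter, Benjamini-Hochberg adjustment over all genes), in 1 fit each for the mesoderm libraries, the HPC libraries, both together, and the WT libraries of all stages. A gene was called at an adjusted p under 0.05, and a direction was read from called values. The SE is the absolute log2 fold change divided by the square root of F. The alternatives were DESeq2 1.42.0, other scalings and filters, summed repeat libraries, each library left out in turn and the clone as a block; leaving out both libraries of low TMM factor, the total of single-locus snoRNA and scaRNA entries, and the ratios were added after the data had been seen. The scripts were tested on simulated counts. Named genes are all members with an entry, up to 4 called genes of smallest p per list with a few fixed ones, and the 3 genes most like each member.

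The labels name the same clones at both sorted stages. Deviations of a clone's mesoderm and HPC libraries from their group means correlated at -0.067 to 0.177 over 9170 genes in 9 clones. Mesoderm and HPC libraries of a genotype are clones or repeats of a clone, so that p-values measure the spread between these libraries. The SE includes the spread between the libraries of a fit. The detection limit of 3 counts is a set number that was not estimated from the data.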

Additional observations from a re-analysis of the deposited data

Results flagged for a closer look

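The highest and lowest values of Rmrp, Rpph1, Terc and Rprl3 were compared with the rest of their group in WT HPCs (4 libraries) and P2-CTCF-KO HPCs (5 libraries). A single library stood apart in 2 of these 8 sets of values, where chance gives about 1 in 20. The sets share libraries and are not independent. Terc was at 1.376 CPM (17 counts) in P2-CTCF-KO HPCs D10.1-2, against 0.7129 CPM in the next library and 0.558 CPM in the other library of that clone. Rprl3 was at 11.48 CPM in WT HPCs B9.3-2, against 3.801 CPM in the next library and 3.03 CPM in the other library of that clone, and it is this library that made the stages of WT overlap for Rprl3.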

How the results depend on the processing

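The number of members called was 3 in WT, 1 in P1-CTCF-KO and 2 in P2-CTCF-KO between HPCs and mesoderm, and 1 between mesoderm and undifferentiated cells. With the total of single-locus entries as library size these became 1, 2, 1 and 2. With the total of all snoRNA and scaRNA entries they became 0, 0, 0 and 3, and with those at single loci (added after the data had been seen) 1, 0, 1 and 3. Against undifferentiated cells, both Rmrp (-1.46 and 2.35, log2) and Rpph1 (-2.89 and 0.96) were called in opposite directions by the latter pair of totals. With the clone as a replicate block the number was 0 in P1-CTCF-KO, where Rpph1 had an adjusted p of 0.077 (edgeR), and the block changed no other call of a member. Leaving out 1 library at a time gave 1 to 3 members in WT, 0 to 2 in P1-CTCF-KO and 1 to 3 in P2-CTCF-KO. In P1-CTCF-KO no member was called without any 1 of 12 libraries: mesoderm WT C6.1 and C8.1, P1-CTCF-KO E7.1 and E9.1, and P2-CTCF-KO D10.1, D2.1 and E9.1, and HPCs WT C8.1, P1-CTCF-KO E7.1, E7.2 and E9.1, and P2-CTCF-KO D10.1-2; without mesoderm P1-CTCF-KO E7.2 Rmrp and Rpph1 were called. The cause of these changes was not tested. Among the values of single members under the alternatives, 810 stayed on their side of the threshold, 13 newly passed it and 41 no longer did. The sign was compared only for values called by edgeR with TMM and all libraries of a fit, and none of these changed it. Rmrp and Rpph1 against undifferentiated cells, above, were not among them.

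Over all genes, P2-CTCF-KO against WT in mesoderm gave 3 calls, but 180 with DESeq2, 188 with single-locus totals, 247 and 603 with the snoRNA totals, 464 without the filter, 18 in the fit of all 23 libraries, 0 without both libraries of low TMM factor and 0 to 128 with 1 library left out. P2-CTCF-KO against P1-CTCF-KO in mesoderm gave 0, but 99 with DESeq2, 130, 165 and 108 with the 3 totals and 277 without the filter. The difference of the stage change for P2-CTCF-KO gave 2, but 37 with DESeq2 and 0 with each of the 3 totals. Against undifferentiated cells 3507 became 9967, 11011 and 8117 with the 3 totals, and 45.3% of calls higher became 3.68%, 2.2% and 94.8%, and 55.5% with DESeq2. The stage change in P1-CTCF-KO gave 3615, but 1985 with the single-locus snoRNA total, and that in P2-CTCF-KO 3418, but 5314 with the total of all snoRNA and scaRNA entries.

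Terc rests on 3 to 17 counts per HPC library and Vaultrc5 on at most 2, so that differences of Terc near its SE were not detectable at this depth and Vaultrc5 could not be compared.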
